A study of Homo sapiens with 9 samples.

Results

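The genes described here are 47 interferon-stimulated genes, read in RNA sequencing of 9 libraries from human cells labelled HepG2, a line derived from a liver carcinoma. The members were named one by one and matched by symbol to the 62703 genes of the deposited table, where each of the 47 stood on a single line. The list was chosen by the measured differences of interferon-stimulated genes between the treatments and palmitic acid alone. Values are TPM, a measure of transcript abundance that divides reads by gene length and sets every library to one total, so levels of different genes can be compared but the number of reads behind them is unknown. A gene was tested when its mean over the 9 libraries reached 1 TPM, which 36 of the 47 did, of 13443 genes in all.

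Every culture had first received palmitic acid, a saturated fat, at 750 µM over 24 h. The first 3 libraries are of cells with palmitic acid alone, the next 3 of cells then given 20 µM curcumin, the yellow polyphenol of turmeric, for 12 h, and the last 3 of cells given 20 µM curcumin and 5 µM CuCl2 together for 12 h. The labels name neither untreated nor vehicle-treated cells, nor any added interferon or virus. They do not say whether the cells with palmitic acid alone were kept for those 12 h, so curcumin and that time cannot be told apart. Nor do they tie replicates to separate cultures, so p-values measure only how these libraries scatter, and that scatter may be technical. Markers of the labelled cell type were nearly absent: of 23 hepatocyte genes, 22 had a mean under 1 TPM and 7 were listed at 0 in every library, the albumin gene ALB among them. VTN was the exception, at a mean of 7.46 TPM.

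Interferons are secreted proteins that warn cells of infection. A type I or type III interferon bound to its receptor activates the kinases JAK1 and TYK2, and STAT2 then joins a partner STAT protein and IRF9 in a complex called ISGF3. That complex binds a DNA element, the interferon-stimulated response element (ISRE), in the promoters of many of the genes below, whose products bind foreign RNA, block entry or release of viruses, or tag proteins. Many of these genes also have a low level in cells that have met no interferon, and IRF1, IRF3 and IRF7 can act on the same element.

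Promoters are shown here because many of the members hold this element. The choice of members did not use sequence, but it took genes of the kind that ISGF3 acts on. The shares below are therefore a description. RefSeq windows (GRCh38.p14) from 250 bases before to 50 bases after an annotated start were found for 38 of the 47 members, in 51 windows. IFIT2, MX2, OAS2, OASL, IRF7, DHX58, USP18, TRIM22 and IFITM2 were not matched. The ISRE core was searched as GAAA, any 2 bases and GAAA on both strands, counting overlapping matches. It was in 62.7% of the members' windows, against 3.57% of all 35116 windows, and in at least 1 window of 27 of the 38 members. The longer form, the core followed directly by CT, was in 37.3% of the members' windows and in 0.273% of all windows. The first 2 sequences are whole windows, of IFIT1, a member that was lower with curcumin, and of ISG15, an abundant one. They are followed by the cores nearest the start in other members with 10 bases on each side. Capitals mark the core, which reads TTTC, 2 bases and TTTC where it lies on the other strand.
IFIT1, chr10:89392373-89392672, plus strand: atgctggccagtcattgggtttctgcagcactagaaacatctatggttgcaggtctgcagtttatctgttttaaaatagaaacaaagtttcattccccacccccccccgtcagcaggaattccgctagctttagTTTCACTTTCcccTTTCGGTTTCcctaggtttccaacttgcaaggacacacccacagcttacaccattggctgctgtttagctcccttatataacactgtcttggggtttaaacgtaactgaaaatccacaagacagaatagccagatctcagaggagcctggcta
ISG15, chr1:1013247-1013546, plus strand: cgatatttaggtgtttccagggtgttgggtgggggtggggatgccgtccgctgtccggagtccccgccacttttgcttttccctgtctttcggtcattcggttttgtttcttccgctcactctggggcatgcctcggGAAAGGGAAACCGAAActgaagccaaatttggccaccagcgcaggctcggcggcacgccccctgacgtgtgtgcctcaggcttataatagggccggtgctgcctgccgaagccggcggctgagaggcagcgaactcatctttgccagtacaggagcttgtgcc
IFIT3, chr10:89332468-89332497, plus strand: gttccatcagTTTCACTTTCctttcccctt
IFIT5, chr10:89414539-89414583, plus strand: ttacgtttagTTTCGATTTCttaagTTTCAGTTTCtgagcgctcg
IFIH1, chr2:162318686-162318715, minus strand: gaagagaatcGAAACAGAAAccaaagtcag
IFI44, chr1:78649761-78649790, plus strand: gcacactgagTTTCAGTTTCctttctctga
IFITM3, chr11:320876-320922, minus strand: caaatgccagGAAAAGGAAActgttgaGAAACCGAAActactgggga
PARP9, chr3:122564322-122564351, minus strand: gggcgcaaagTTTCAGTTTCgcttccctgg
DTX3L, chr3:122564322-122564351, plus strand: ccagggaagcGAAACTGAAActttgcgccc
BST2, chr19:17405735-17405770, minus strand: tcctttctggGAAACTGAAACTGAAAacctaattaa
LGALS3BP, chr17:78979962-78979991, minus strand: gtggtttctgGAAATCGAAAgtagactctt

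PARP9 and DTX3L are transcribed away from each other, and the core shown for them is the same 10 bases read from either strand. ISG15 and BST2 each hold overlapping cores in 1 run. The window of IRF9 holds no match to the core. It has instead 1 match to TTCNNNGAA, the letters of the gamma-activated site (GAS) bound by STAT dimers, shown in capitals with 10 bases on each side. That motif reads the same on both strands, can overlap a core, as it does in BST2, and was in 29.4% of the members' windows and 7.66% of all windows.
IRF9, chr14:24161192-24161220, plus strand: accacgtgatTTCTGGGAAaaggccctcc

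**Figure D1:**
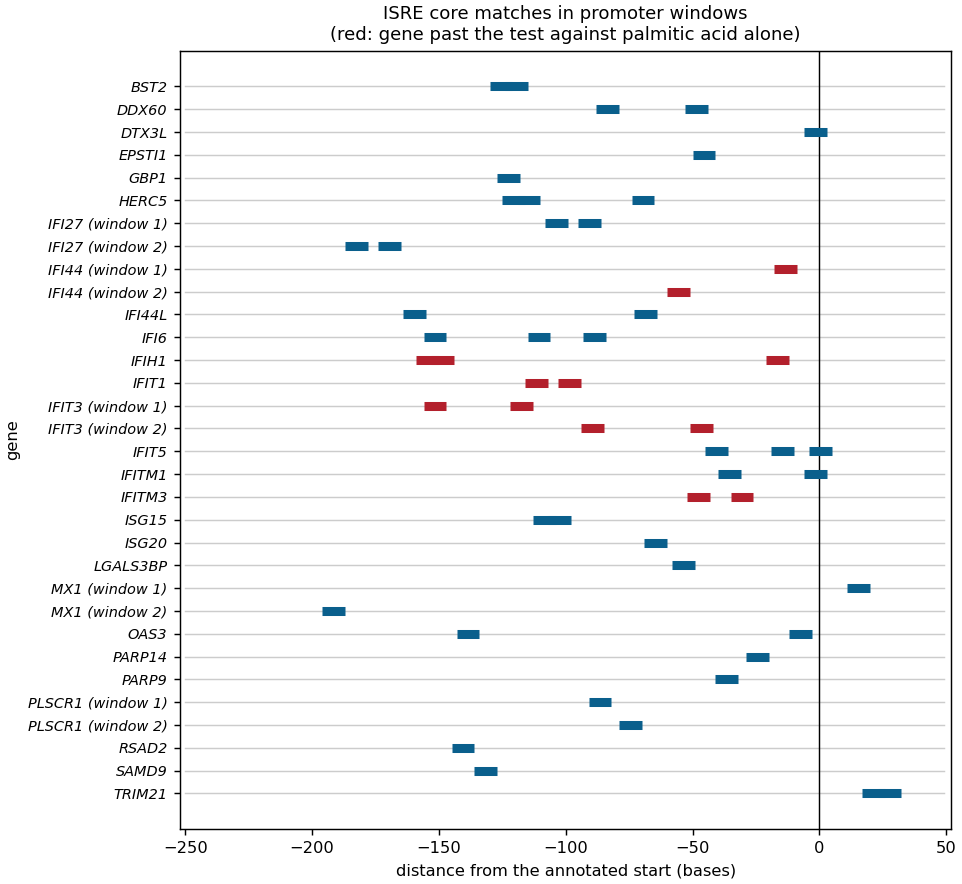
Position of each ISRE core match (bars) in the 32 promoter windows of 27 members that hold one, with distance from the annotated start in bases on the x axis and 1 line per window. Red bars belong to genes past the test against palmitic acid alone. Most matches lie before the start, and those of TRIM21 and of 1 window of MX1 lie after it.

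Some members lie next to each other in the genome. All 47 were found in GENCODE release 29 (GRCh38) as protein-coding genes on 16 chromosomes, and 22 of them stand in 9 groups with gaps of at most 100000 bases, while the rest stand alone. The largest is the group of IFIT2, IFIT3, IFIT1 and IFIT5 on chromosome 10 at 89283694 to 89421001. IFITM2, IFITM1 and IFITM3 lie on chromosome 11 at 307631 to 327537, and OAS1, OAS3 and OAS2 on chromosome 12 at 112906777 to 113011723. The IFITM proteins are near copies of each other, and the annotated span of IFITM2 overlaps IFITM1, so how reads were divided among these genes is uncertain. PARP9 and DTX3L overlap on opposite strands. The library kit keeps strand, but whether the authors' counting used it is not given in the sources used here.

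In cells with palmitic acid alone, the members spanned a wide range of levels. IFITM3, which encodes a membrane protein that hinders virus entry, was the most abundant of them at 998 ± 59.3 TPM (SD, n = 3, as for all means below). BST2, the gene of tetherin, which holds budding virus on the cell surface, followed at 421 ± 85.6 TPM, and ISG15, which encodes a ubiquitin-like protein, stood at 274 ± 59.1 TPM. At the other end, 11 members did not reach the filter: MX1, OAS2, XAF1, SAMD9L, UBE2L6, IFI44L, PARP14, TRIM22, GBP1, EPSTI1 and CMPK2. The highest of these, MX1, a gene of a GTPase that traps viral particles, had a mean of 0.850 TPM over all 9 libraries, and the lowest member that passed, the helicase gene DDX60, had 1.31 TPM over the same 9. CMPK2 was listed at 0 in every library. The interferon genes themselves were low in every treatment: all 15 ligand genes listed had means under 1 TPM over the 9 libraries, with 6 at 0 in every library. They summed to between 1.08 and 1.86 TPM with palmitic acid alone, between 0.520 and 1.56 TPM with curcumin, and between 0.980 and 1.12 TPM with CuCl2. IFNB1, the gene of interferon beta, was listed at 0.450, 0.370 and 0.330 TPM with palmitic acid alone, at 0.380, 0 and 0 TPM with curcumin, and at 0.180, 0.110 and 0.280 TPM with CuCl2. Its libraries with CuCl2 were all below those with palmitic acid alone, those with curcumin overlapped them, and the gene was under the filter and not tested.

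The comparisons with palmitic acid alone ask which of these transcripts differed once curcumin, or curcumin with copper, had been added. Most members had lower levels in both. With curcumin the estimate was below 0 for 34 of 36 members and 53.5% of all genes, with median log2 differences of -0.58 and -0.02. With curcumin and CuCl2 it was below 0 for 35 of 36 members and 56.1% of all genes, with medians of -0.70 and -0.03. All differences are of log2(TPM + 1), which understates the change of low genes. By limma, with Benjamini-Hochberg adjustment over all genes, 7 members were lower with curcumin, against 1.21% of all genes. With curcumin and CuCl2, 8 members were lower, against 0.900% of all genes. IFIT1, IFIT2, IFIT3, IFIH1, OASL, IFI44 and IFITM3 passed in both, IRF9 passed in the second, and no member was higher in either, where 0.759% and 0.543% of all genes were. These contrasts guided the choice of members, so the counts describe the list and support nothing further. Both comparisons use the same 3 libraries with palmitic acid alone. In bulk RNA, fewer cells that express a gene and less of its RNA per cell cannot be told apart.

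With libraries 1, 2 or 3 of palmitic acid alone left out in turn, the 7 calls with curcumin were 4, 2 and 13. Of all genes, 0.47%, 0.44% and 3.12% were then lower, against 1.21% with all libraries. The calls were 4, 4 and 2 without those of curcumin (0.417%, 0.387% and 0.238% of all genes). They were 4 without replicate 3 of curcumin with CuCl2 (0.386%), whose libraries share the estimate of spread. The 8 calls with curcumin and CuCl2 were 4, 4 and 16 without those of palmitic acid alone. Of all genes, 0.425%, 0.365% and 2.76% were then lower, against 0.9% with all libraries. Without any 1 of the libraries with CuCl2 the calls were 3 (0.193%, 0.29% and 0.2% of all genes). The medians stayed between -0.49 and -0.69 with curcumin and between -0.57 and -0.79 with curcumin and CuCl2 when any 1 library was left out.

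**Figure D2:**
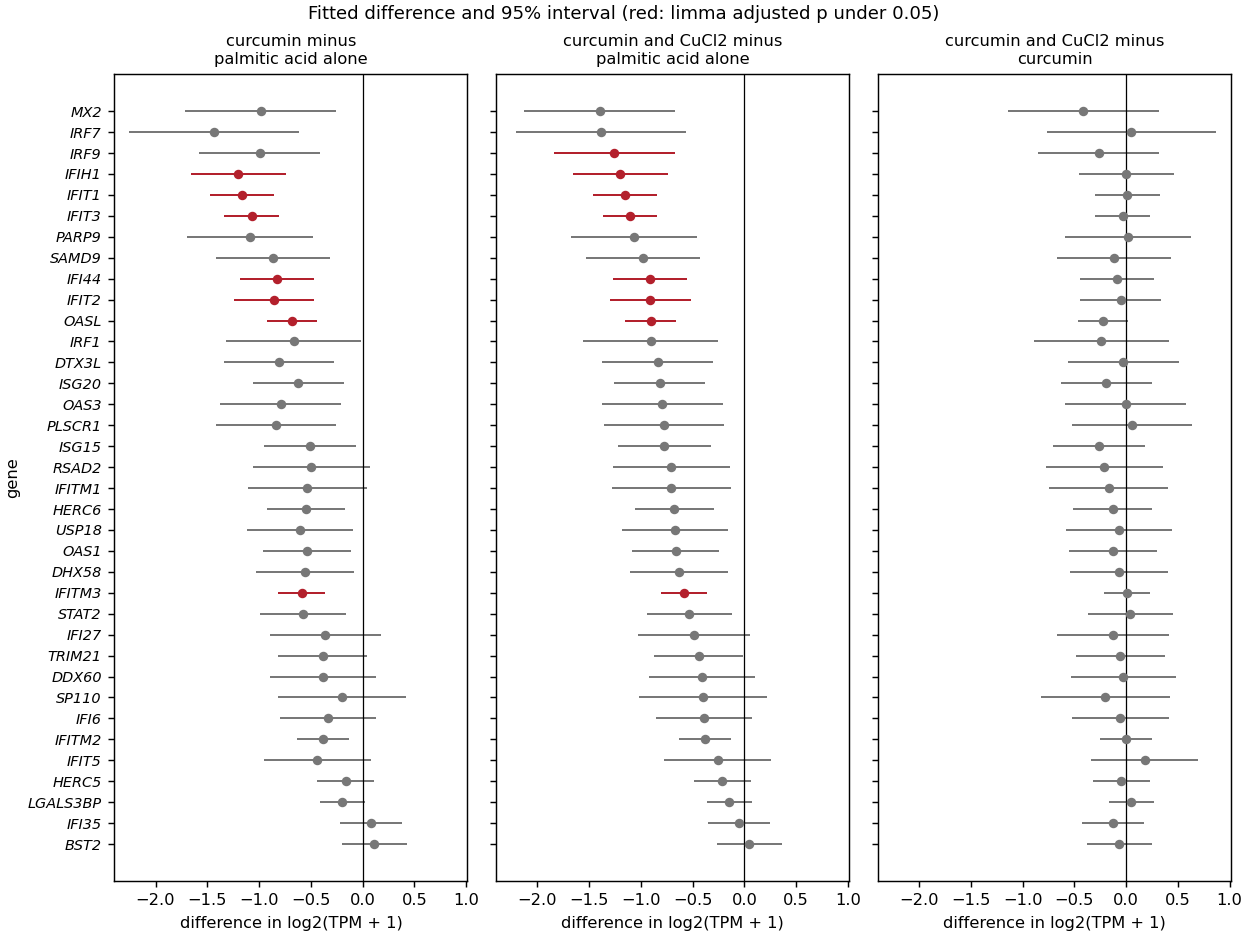
Fitted difference in log2(TPM + 1) (points) with its 95% interval (lines) for the 36 tested members, ordered by the difference in the middle panel, for curcumin and for curcumin with CuCl2 against palmitic acid alone and for the difference between the last 2 groups. Red marks members past an adjusted p of 0.05 by limma: 7 in the left panel, 8 in the middle one and 0 in the right one.

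The libraries did not separate the members evenly. All 3 libraries with curcumin lay below all 3 with palmitic acid alone for 25 of 36 members, a pattern found in 8.61% of all genes. With curcumin and CuCl2 it held for 26 members and for 10.3% of all genes. No member showed the opposite order in either, which 8.15% and 8.67% of all genes did. Within the group with palmitic acid alone, replicate 2 was the highest for 23 of the 36 members, and replicate 3 the lowest for 21. Among all genes tested, replicate 2 was the highest for 25.3% and replicate 3 the lowest for 61.4%. The members' median deviation from their mean with palmitic acid alone was -0.09, 0.28 and -0.18 in its 3 libraries, in log2(TPM + 1). It ranged from -0.72 to -0.48 in the libraries with curcumin and from -0.89 to -0.60 in those with CuCl2. The mitochondrial share of TPM, 13%, 12.5% and 10.1% with palmitic acid alone, was 10.4%, 12.4% and 10.9% with curcumin and 10.7%, 11.8% and 11.4% with CuCl2. With that share as a covariate, 12 and 16 members were lower, against 4.78% and 5.02% of all genes, and its part in the result was not tested.

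**Figure D3:**
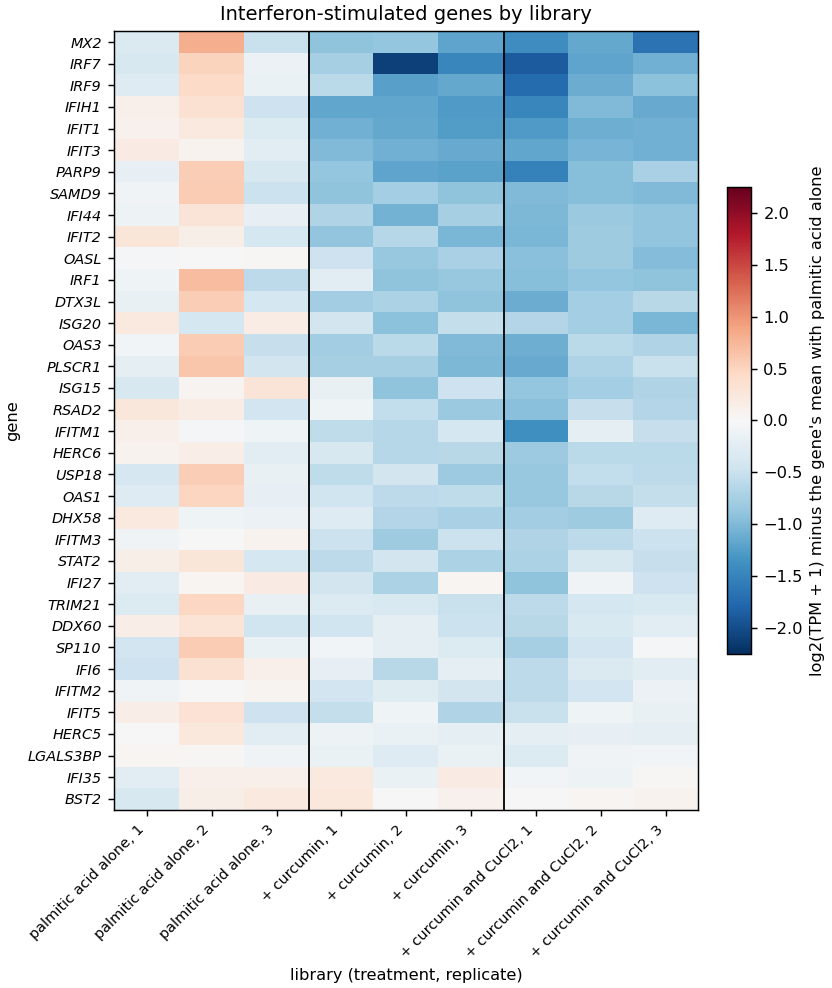
Each tested member (rows, ordered as in the plot of differences) in each of the 9 libraries (columns), as log2(TPM + 1) minus the gene's mean over the 3 libraries with palmitic acid alone; blue is lower, red higher, and black lines part the treatments. Replicate 2 of palmitic acid alone is the reddest column, and the lowest rows, IFI35 and BST2, lie on both sides of 0, from -0.24 to 0.21 in IFI35 and from -0.36 to 0.24 in BST2.

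The transcription factors come first, since they act on the other members. IRF9, the DNA-binding part of ISGF3, lies on chromosome 14 at 24161053 to 24166565. It stood at 36.5, 60.6 and 40.3 TPM with palmitic acid alone, at 28.9, 18.7 and 19.6 TPM with curcumin, and at 12.8, 20.1 and 23.1 TPM with curcumin and CuCl2. Every treated library was below every library with palmitic acid alone. The log2 difference was -0.99 (SE 0.26) with curcumin, which did not pass (limma adjusted p = 0.0958). With CuCl2 it was -1.26 (limma adjusted p = 0.0496), a call that held in 5 of 19 alternative settings. STAT2, its partner in the complex, stood at 16.7, 18.7 and 11.3 TPM with palmitic acid alone. With curcumin it had 9.76, 11.1 and 8.93 TPM, and with CuCl2 8.87, 11.7 and 10.3 TPM. The lowest library with palmitic acid alone was replicate 3, which lay just above all 3 libraries with curcumin and below 1 of those with CuCl2. Its differences of -0.57 and -0.53 (SE 0.18) did not pass.

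IRF7, which carries the response forward by inducing more interferon, had the largest estimate of any member with curcumin and wide scatter. Its libraries read 9.36, 17.9 and 11.1 TPM with palmitic acid alone, then 6.98, 2.12 and 3.82 TPM with curcumin, and 2.63, 4.84 and 5.29 TPM with CuCl2. No treated library reached the lowest of the first group. The differences were -1.44 and -1.38 (SE 0.36), with limma adjusted p = 0.0870 and 0.102. IRF1, which answers interferon gamma and inflammatory signals, read 29.7, 52.2 and 20.9 TPM with palmitic acid alone, then 26.7, 16.6 and 17.3 TPM with curcumin, and 16.1, 17.1 and 16.6 TPM with CuCl2. Its groups overlapped with curcumin but not with CuCl2, and neither difference (-0.67 and -0.91, SE 0.29) passed. Replicate 2 was the highest library for all 4 of these genes.

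The IFIT genes, whose tetratricopeptide proteins bind viral RNA and hinder its translation, held the steadiest members. IFIT1 stood at 59.2, 64.6 and 44.3 TPM with palmitic acid alone, at 25.7, 24.3 and 22.5 TPM with curcumin, and at 22.3, 25.2 and 25.7 TPM with CuCl2. The 6 treated libraries lay within a few TPM of each other and well below the first group. The log2 differences were -1.16 and -1.15 (SE 0.13, limma adjusted p = 0.00398 and 0.00527), at 0.432 and 0.436 of the mean with palmitic acid alone. IFIT3, which stabilises IFIT1 in a shared complex, read 79.8, 73.7 and 58.2 TPM, then 34.6, 32.6 and 31.2 TPM with curcumin, and 30.4, 33.2 and 32.4 TPM with CuCl2. Its differences of -1.07 and -1.10 (SE 0.11) were called, like those of IFIT1, in all 19 alternative settings of both comparisons. IFIT2 read 76.9, 69.6 and 47.9 TPM, then 33.8, 40.3 and 30.6 TPM, and 30.6, 35.9 and 33.9 TPM. Its groups did not overlap, and its differences were -0.86 and -0.91 (SE 0.17), called in 7 and 9 of the 19 settings. IFIT5, the fourth gene of the group, overlapped between groups at 13.2 ± 3.78, 9.36 ± 2.27 and 10.6 ± 1.66 TPM and did not pass (-0.44 and -0.26, SE 0.23). All 4 share a cluster and 3 of them were searched for the ISRE core, with IFIT5 holding 3 matches.

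RNA sensors were the next group. IFIH1, the gene of MDA5, which detects long double-stranded RNA, lies on chromosome 2 at 162267079 to 162318703. It read 23.6, 27.7 and 15.5 TPM with palmitic acid alone, then 9.12, 9.10 and 8.34 TPM with curcumin, and 7.23, 10.4 and 9.28 TPM with CuCl2. All 6 treated libraries were below the lowest of the first group. Its differences were -1.20 with either treatment (SE 0.20), called in 11 and 12 of 19 settings. DHX58, which encodes LGP2, a helicase that tunes MDA5, was at 2.24 ± 0.461, 1.20 ± 0.372 and 1.11 ± 0.442 TPM (-0.56 and -0.63, SE 0.21), and DDX60 did not pass either (-0.38 and -0.41, SE 0.22).

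The OAS enzymes make a short RNA-like messenger that switches on an RNA-cutting enzyme. OASL, a family member without that activity, gave the tightest values of the tested members with palmitic acid alone, relative to the mean, at 64.8, 65.4 and 67.4 TPM. It read 47.5, 35.8 and 39.4 TPM with curcumin and 33.8, 37.5 and 32.9 TPM with CuCl2, with no overlap. Its log2 differences were -0.68 and -0.91 (SE 0.10, limma adjusted p = 0.0159 and 0.00511), called in 16 of 19 settings with curcumin and in all 19 with CuCl2. OAS1 read 57.3, 99.3 and 61.7 TPM, then 51.7, 46.6 and 46.9 TPM with curcumin and 38.9, 45.7 and 48.5 TPM with CuCl2. Those groups also did not overlap, but replicate 2 stood far above the other two libraries of the first group, and the differences (-0.54 and -0.66, SE 0.18) did not pass. OAS3, at 9.33 to 21.0 TPM with palmitic acid alone, 6.38 to 8.75 TPM with curcumin and 5.89 to 8.69 TPM with CuCl2, showed the same order (-0.79 in both, SE 0.26). OAS2 was under the filter, at between 0.870 and 1.83 TPM with palmitic acid alone and between 0.220 and 0.380 TPM in the treated libraries.

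Membrane proteins that act on virus entry and release divided. IFITM3 read 938, 998 and 1057 TPM with palmitic acid alone, then 711, 573 and 712 TPM with curcumin, and 620, 666 and 715 TPM with CuCl2. The groups stood well apart, and the log2 differences were -0.59 and -0.58 (SE 0.10, limma adjusted p = 0.0195 and 0.0211), called in 13 and 12 of 19 settings. IFITM2 read 257, 271 and 282 TPM, then 199, 222 and 202 TPM, and 179, 201 and 246 TPM. Its groups did not overlap, yet the difference of -0.38 in both (SE 0.11) did not pass. IFITM1, far lower at 13.5 ± 1.05 TPM, was at 9.01 ± 0.898 and 8.38 ± 3.54 TPM. BST2 went the other way in its estimates: 324, 453 and 485 TPM, then 491, 412 and 446 TPM, and 416, 429 and 439 TPM. Its groups overlapped fully, with 95% intervals of the log2 difference of -0.19 to 0.42 and -0.26 to 0.35. PLSCR1, a phospholipid scramblase gene, was at 53.8 ± 22.0, 28.4 ± 2.93 and 30.0 ± 6.68 TPM without passing.

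ISG15 and the enzymes that attach or remove it gave no call. ISG15 read 211, 283 and 328 TPM with palmitic acid alone, then 240, 144 and 196 TPM with curcumin, and 146, 158 and 169 TPM with CuCl2. Only with CuCl2 were all 3 libraries below the first group, which is an order and not a test of the difference between treatments. The log2 differences were -0.51 and -0.77 (SE 0.19, limma adjusted p = 0.270 and 0.0929). USP18, the protease that removes ISG15 and also restrains the interferon receptor, read 12.2, 24.1 and 14.2 TPM, then 10.5, 11.9 and 8.71 TPM, and 8.52, 10.6 and 10.4 TPM (-0.60 and -0.67, SE 0.22). Its treated libraries were all below the first group. HERC5, the ligase gene of the ISG15 pathway, had estimates of -0.16 and -0.21, at 26.6 ± 4.68, 23.4 ± 0.978 and 22.6 ± 0.370 TPM, while its neighbour HERC6 had estimates of -0.54 and -0.67 (SE 0.16). UBE2L6, which encodes the conjugating enzyme, was under the filter.

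**Figure D4:**
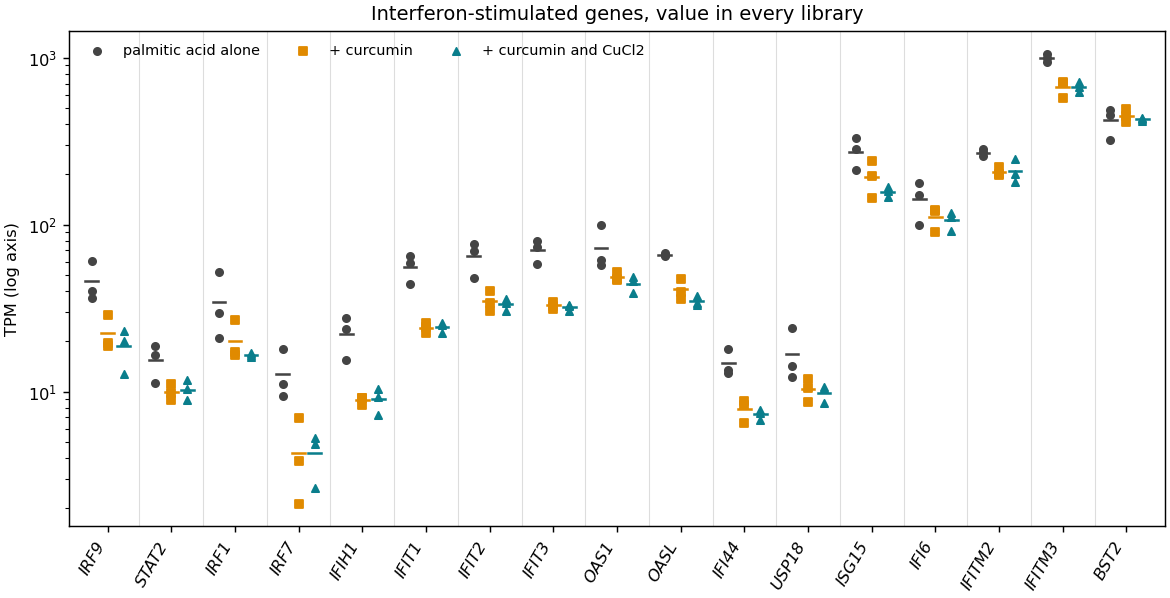
TPM of 17 members in each library, on a log axis, with 3 points per treatment and a short line at their mean. Points of IFIT1, IFIT3 and OASL form separate groups for palmitic acid alone and the treatments, while those of BST2 overlap.

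Of the remaining members, IFI44, of uncertain biochemical role, read 13.5, 18.1 and 12.8 TPM, then 8.83, 6.50 and 8.32 TPM, and 6.78, 7.79 and 7.41 TPM. All treated libraries were lower, and the differences of -0.82 and -0.91 (SE 0.15) were called in 8 and 11 of 19 settings. IFI6, which encodes a small membrane protein, read 99.9, 177 and 151 TPM, then 123, 90.0 and 121 TPM, and 92.0, 110 and 117 TPM, with overlap and no call (-0.33 and -0.39, SE 0.20). The largest estimate with CuCl2 was that of MX2, a GTPase gene related to MX1, at 3.84 ± 2.61, 1.25 ± 0.273 and 0.700 ± 0.295 TPM (-1.40, SE 0.32, limma adjusted p = 0.0743). MX2 read 2.54, 6.85 and 2.14 TPM with palmitic acid alone, so its mean there leaned on replicate 2. It passed the filter at 1.93 TPM over the 9 libraries through that group, and its treated values lay near or under 1 TPM. PARP9 and DTX3L, partners in a ubiquitin ligase, had estimates of -1.09 and -0.81 with curcumin and of -1.06 and -0.84 with CuCl2, without passing. SAMD9 (-0.86 and -0.98), the exonuclease gene ISG20 (-0.62 and -0.82) and RSAD2, the gene of viperin (-0.49 and -0.70), did not pass either. TRIM21, IFI27 and SP110 had smaller estimates, none past the threshold. The 95% interval held 0 for 12 of 36 members with curcumin and for 9 with CuCl2. IFIT5, IFI6, IFI27, HERC5, DDX60, SP110, IFI35, LGALS3BP and BST2 had intervals that hold 0 in both comparisons. For the last 3 of these, the lowest bound was -0.40, that of LGALS3BP with curcumin. BST2 and LGALS3BP hold the ISRE core, as do 22 of the 29 tested members with a window. The median log2 difference with curcumin was -0.56 in those 22 and -0.54 in the other 7, and with CuCl2 it was -0.74 and -0.66, given as a description.

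The size of the difference was also set beside the level. Across the 36 members, Spearman's rho between the mean with palmitic acid alone and the log2 difference was 0.09 with curcumin and 0.11 with CuCl2, a description over genes that share their libraries. Members under 10 TPM, from 10 to 50 TPM and from 50 TPM up numbered 8, 17 and 11, with median differences of -0.55, -0.60 and -0.59 with curcumin. These are differences of log2(TPM + 1), which understates the change of low genes. They therefore cannot show whether the relative change depends on level.

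Copper added to curcumin was then compared with curcumin alone. No member passed by limma, and none had an unadjusted p under 0.05, where 215 of 13443 genes did and 0% passed after adjustment. The estimate was below 0 for 27 of 36 members and 54.2% of all genes. The members' median difference was -0.06, against -0.01 over all genes, and it was 0.01 without replicate 1 of curcumin with CuCl2. The 95% interval of the difference was -0.29 to 0.31 for IFIT1, -0.29 to 0.22 for IFIT3 and -0.21 to 0.22 for IFITM3. OASL was 40.9 ± 5.95 TPM with curcumin and 34.7 ± 2.42 TPM with CuCl2, at -0.22 (-0.46 to 0.01), and IRF9 had an interval of -0.84 to 0.31. The intervals of all 36 members hold 0, and the widest, of IRF7, ran from -0.76 to 0.86. SAMD9 was the 1 member with all libraries with CuCl2 below those with curcumin, an order found in 3.61% of all genes. It read 1.39, 1.64 and 1.39 TPM with curcumin and 1.26, 1.31 and 1.27 TPM with CuCl2 (-0.12, SE 0.24). Those values lie near the filter of 1 TPM.

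Other genes of the pathway, which are not members, were read from 6 lists. Of 86 genes, 52 passed the filter. By limma with adjustment over all genes, 1 was lower with curcumin, where 1.21% of all genes were, 3 were lower with curcumin and CuCl2, where 0.900% were, and none was higher. Their median differences were -0.09 and -0.17. Receptor genes had differences near 0: none of 5 tested passed, and IFNAR1, which encodes a chain of the type I interferon receptor, was at 28.0 ± 2.80, 27.0 ± 2.44 and 26.5 ± 1.41 TPM, with intervals of -0.28 to 0.18 and -0.30 to 0.15. None of 5 kinase and STAT genes passed. JAK1 had intervals of -0.49 to 0.41 and -0.47 to 0.43.

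Among 11 sensor and adaptor genes tested, none passed with curcumin and 2 were lower with CuCl2. Of all genes, 1.21% and 0.900% were lower. All treated libraries lay below those with palmitic acid alone for 4 of the 11 in each comparison. That order held for 8.61% and 10.3% of all genes. DDX58, the gene of RIG-I, a sensor of viral RNA ends, read 8.69, 11.5 and 7.48 TPM with palmitic acid alone, then 5.71, 4.24 and 3.20 TPM with curcumin, and 3.25, 4.19 and 4.16 TPM with CuCl2. Its groups did not overlap, with differences of -0.93 and -1.06 (SE 0.20, limma adjusted p = 0.0556 and 0.0406). STING1, which relays signals of cytosolic DNA, was at 14.3 ± 0.942, 10.4 ± 0.660 and 9.75 ± 0.488 TPM (-0.43 and -0.51, SE 0.10, limma adjusted p = 0.0691 and 0.0425). MAVS, the adaptor of both RNA sensors, had 4.71 ± 0.645, 4.81 ± 0.311 and 4.45 ± 0.443 TPM. The kinase gene TBK1 had estimates of 0.45 and 0.25, which did not pass (limma adjusted p = 0.118 and 0.429). Its treated libraries were all above those with palmitic acid alone. None of 5 negative regulators passed.

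Of 26 further interferon-stimulated genes that were tested, ZC3HAV1 was lower in both comparisons. It encodes ZAP, which binds viral RNA rich in CpG, and stood at 28.7 ± 4.49, 18.1 ± 0.372 and 17.7 ± 1.43 TPM (-0.63 and -0.66, SE 0.12, limma adjusted p = 0.0295 and 0.0274). HELZ2, a helicase gene, had the largest estimates of the list, -1.55 and -1.57 (SE 0.36), and did not pass. Its highest library, at 14.2 TPM, was replicate 2 of palmitic acid alone. The list's median differences were -0.20 and -0.23. Of the calls among all 52 tested pathway genes, the 1 with curcumin was 11 without replicate 3 of palmitic acid alone (3.12% of all genes lower). It was 0 without any 1 of the other libraries (0.238% to 0.498%). The 3 calls with CuCl2 were 12 without replicate 3 of palmitic acid alone (2.76%). They were 1 without any 1 library of curcumin (0.542% to 0.871%) and 0 without any of the rest (0.193% to 0.425%).

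**Figure D5:**
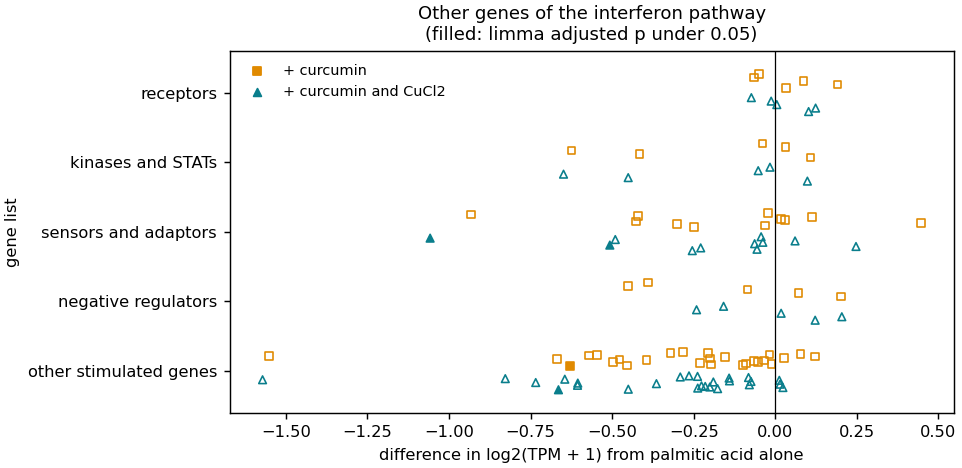
Fitted difference in log2(TPM + 1) from palmitic acid alone (x axis) for the 52 tested pathway genes that are not members, by list, with squares for curcumin and triangles for curcumin with CuCl2. Filled symbols passed limma at an adjusted p of 0.05, and receptors lie within 0.25 of 0.

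Leukocytes, which make and answer interferon, were looked for by 12 marker genes. Of these, 9 had means under 1 TPM, CD3E and CLEC4C were listed at 0 in every library, and PTPRC, the pan-leukocyte gene, had a mean of 0.00556 TPM. The 12 summed to between 9.95 and 13.6 TPM with palmitic acid alone. Their sums lay between 10.2 and 12.4 TPM with curcumin and between 9.64 and 11 TPM with CuCl2. CD68, a lysosomal protein gene that other cells also express, held 7.58 TPM of that on average. All 9 endothelial markers had means under 1 TPM, as did 8 of 10 fibroblast markers. The fibroblast markers summed to between 12.2 and 17.5 TPM with palmitic acid alone, then between 14.1 and 18.5 TPM with curcumin, and between 11.5 and 15.2 TPM with CuCl2, with PDGFRA at 0 in every library. Of the 2 that were tested, FAP, a surface protease gene, had 2.67 ± 0.271, 1.37 ± 0.401 and 0.893 ± 0.0473 TPM. All its treated libraries were below those with palmitic acid alone, and it was lower with CuCl2 (-0.95, SE 0.17, limma adjusted p = 0.0274) but did not pass with curcumin (-0.64, limma adjusted p = 0.0961). COL1A1, a collagen gene, had means of 10.1, 12.9 and 10.4 TPM and did not pass. Their part in the members' differences was not tested.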

How the data were processed

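RNA was extracted with TRIzol and made into stranded mRNA libraries, per the labels' protocols. The submitters' processing notes name HISAT2 2.1.0, RSEM 1.3.3 and GRCh38.p13; the annotation release and the use of strand in counting are not given in the sources used here. The authors deposited TPM for 62703 genes in 9 libraries, of which 20966 have no symbol. TPM keeps no depth, so the depth and counting error are unknown. Samples were grouped by their labels. Genes averaging 1 TPM or more were tested on log2(TPM + 1) with limma 3.58.1 in R 4.3.3 over all 9 libraries, with a variance trend and Benjamini-Hochberg adjustment over 13443 genes at 0.05. The procedure was tested on simulated data. The members and all gene lists were chosen with earlier results of these data known. Every library's value is given for members past the threshold, the 5 most abundant, and a set of transcription factors and well-known family members. Other settings of the pseudocount, filter, scaling, block, variance trend and libraries (18), and a mitochondrial covariate chosen after seeing the data, were run. Same-numbered libraries did not deviate together (Pearson's r from -0.27 to 0.25 in 9 pairs of libraries, across genes), so no block was used.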

Additional observations from a re-analysis of the deposited data

How the results depend on the processing

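Under the 19 alternatives no called difference changed sign, and the counts of calls moved more than the medians. The share of all genes called lower moved as well, and is given in parentheses. The 7 members lower with curcumin (1.21%) were 3 with no filter (0.194%) and 2 with only the groups compared (0.2%). They were 12 with the mitochondrial covariate (4.78%), which was chosen after seeing the data. With 1 library left out they were from 2 to 13 (0.238% to 3.12%). The 8 lower with curcumin and CuCl2 (0.9%) were 3 with no filter (0.204%) and 4 with only the groups compared (0.312%). They were 5 without the variance trend (0.669%) and 16 with the covariate (5.02%). With 1 library left out they were from 3 to 16 (0.193% to 2.76%). The median with curcumin and CuCl2 was -0.53 with a pseudocount of 5. Of the other pathway genes, the 1 lower with curcumin was 0 with no filter (0.194%) and 2 with median-of-ratios scaling (1.38%). It was 0 with only the groups compared (0.2%) and 0 without the variance trend (0.632%). The count was 9 with the covariate (4.78%) and from 0 to 11 with 1 library left out (0.238% to 3.12%). The 3 lower with CuCl2 were 0 with no filter (0.204%), 0 with only the groups compared (0.312%) and 1 with the replicate block (0.684%). They were 9 with the covariate (5.02%) and from 0 to 12 with 1 library left out (0.193% to 2.76%). Fewer samples enter the fits with only the groups compared or 1 library left out, and more genes are tested with no filter. The cause of the moves was not tested in any setting. With the replicate number as a block, 6 and 7 members were lower (0.781% and 0.684%). For copper against curcumin alone, 0 members passed limma in any setting, and their median lay between -0.11 and 0.01 with 1 library left out. With 1 library of a group left out, the spread is pooled over the groups. TPM hides depth, so what counting error limits is unknown.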

Other observations

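The ISRE core also occurs in the promoter windows of genes that are not members. Among tested genes, 328 such genes held GAAA, any 2 bases and GAAA on either strand, and 9339 did not. With curcumin, 58.8% of the former and 52.8% of the latter had an estimate below 0, with median log2 differences of -0.03 and -0.01. With curcumin and CuCl2 the shares were 61.9% and 55.6%, with medians of -0.05 and -0.02. By limma, 5 of the 328 were lower and 4 higher with curcumin, beside 96 and 70 of the 9339. With curcumin and CuCl2, 3 of the 328 were lower and 2 higher, beside 72 and 58 of the 9339. The longer form, followed directly by CT, was in 22 tested genes that are not members, B2M and EIF2AK2 among them, which were named after their values were seen. None of the 22 passed by limma in either comparison, and their medians were -0.14 and -0.11. All treated libraries lay below those with palmitic acid alone for 2 of the 22 with curcumin and 7 with CuCl2. That order held for 8.61% and 10.3% of all genes. These are descriptions over genes that share their libraries, and both comparisons use the same libraries with palmitic acid alone.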
